A study of Capra hircus with 2 samples.

Results

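Cytosolic ribosomal protein genes were followed across the cell types of the fetal goat (Capra hircus) ovary at 2 fetal ages, labelled E85 and E125 for the embryonic day. The members were every gene with a symbol made of RPL or RPS, digits and an optional A, L or X, together with RPLP0, RPLP1, RPLP2 and RPSA. This rule found 26 members among 27271 features: 12 proteins of the small ribosomal subunit, 10 of the large subunit, the stalk proteins RPLP0 and RPLP2, and the tissue-restricted paralogues RPL3L and RPL10L. RPLP1 has no feature under that symbol. Of the genes that encode the standard ribosomal proteins, 24 are members and 54 have no feature under their symbol. Because 10655 features (39.1%) carry no symbol, each summed value below is that of the 26 named genes and not of the whole ribosome.

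The series holds 1 library per stage, made from dissociated ovary of female fetuses with a droplet 3' kit. Values rest on unique molecular identifiers (UMIs), the tags that let each captured RNA molecule be counted once. No strain, genotype, treatment or number of animals is given in the labels. Without replicate libraries the stages could not be tested, and every interval printed is a 95% interval that covers counting error only. The libraries held 4397 and 8346 barcodes with 17748948 and 49692252 UMIs, of which 3825 and 7022 cells were kept, and 13 barcodes occurred in both libraries. Cells were clustered without the member genes and named from marker genes, so each class is written as "like". All 13 germ cell markers were detected in the germ-cell-like droplets at both stages. Of the 10 pregranulosa markers, 9 had a feature and were detected in the pregranulosa-like cells. Detection did not separate classes, as stromal-like and pregranulosa-like cells also had all 13 germ cell markers at both stages. Per 1000000 UMIs, summed germ cell markers stood at 12716 to 17646 in germ-cell-like droplets and at most 506 in any named somatic class. Summed pregranulosa markers stood at 530 (E85) and 2336 (E125) in pregranulosa-like cells, where stromal markers stood at 388 and 914. Endothelial-like cells had 437 and 364 of pregranulosa markers. In lymphoid-like cells lymphoid markers stood at 702 (E85) and 904 (E125), and stromal markers at 803 and 481. Surface-epithelium-like cells had 871 and 1516 of their own markers, and 925 and 540 of stromal markers. Ribosomal protein genes have many near-identical processed copies in mammalian genomes, and how the deposited counts treated reads shared with such copies is not given in the sources used here, so a single member's level is uncertain to that extent.

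The cytosolic ribosome translates messenger RNA into protein. Its small subunit reads the message, its large subunit joins amino acids, and the stalk on the large subunit recruits the elongation factors. In vertebrates most messenger RNAs for ribosomal proteins begin with a 5' terminal oligopyrimidine (TOP) tract, through which mTOR signalling and the RNA-binding protein LARP1 set their translation and stability. A growing oocyte builds up ribosomes that the early embryo uses later.

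Members made up 11.9% of UMIs in kept cells at E85 and 11.4% at E125. The share differed more between cell types than between stages. Of the 7 sets compared between the stages, large germ-cell-like droplets at E85 had 8.90% (8.85 to 8.94) and small germ-cell-like droplets at E125 had 8.43% (8.30 to 8.56), the lowest summed shares of their libraries. Stromal-like cells had 12.4% at both stages, and pregranulosa-like cells, the somatic partners of the oocyte, had 11.4% at E85 and 12.7% at E125. Among all named classes the highest share stood in lymphoid-like cells, with 15.0% (14.8 to 15.2) in 26 cells at E85 and 16.5% (16.4 to 16.6) in 90 cells at E125. These were too few at E85 to be compared between the stages.

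**Figure D1:**
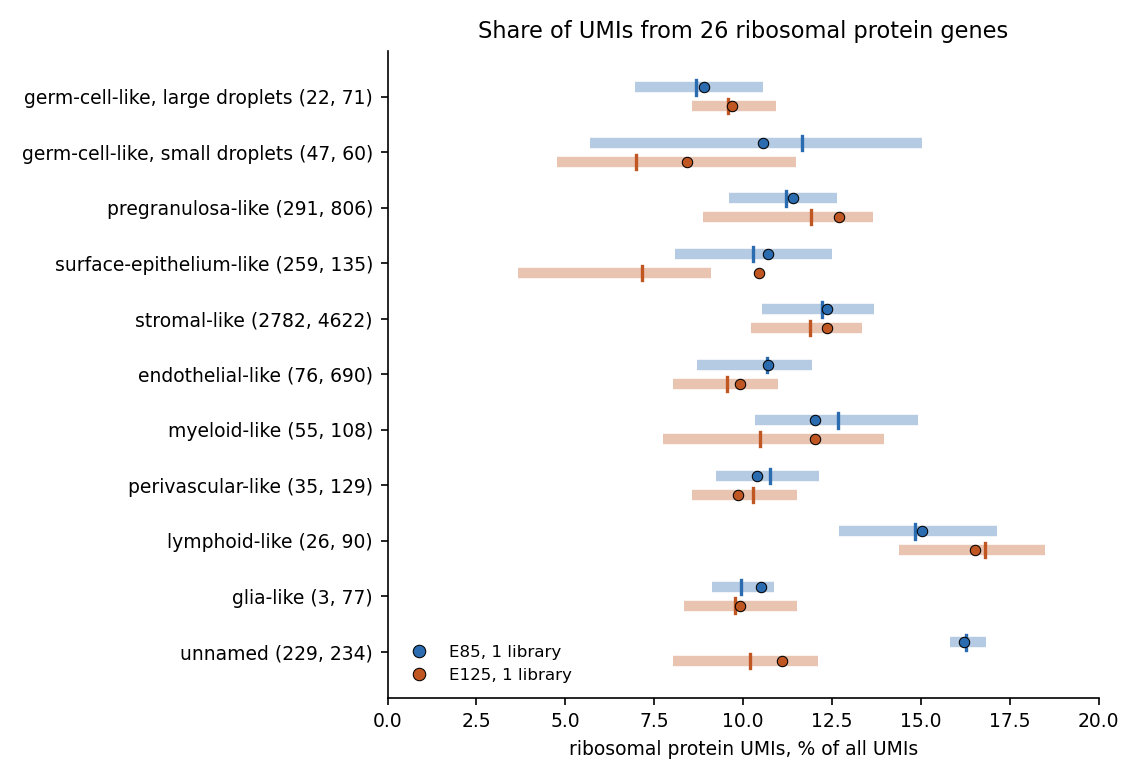
Share of UMIs from the 26 ribosomal protein genes (horizontal axis, percent) by class, with cell numbers at E85 and E125 in parentheses; points are the share of the summed UMIs, vertical ticks the median over cells and bars the middle 50% of cells. Large germ-cell-like droplets lie at 8.90% and 9.69%, to the left of stromal-like cells at 12.4%, and lymphoid-like cells lie farthest to the right among the named classes.

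Between the stages the summed share was close to equal in stromal-like cells, the largest class, with 2782 and 4622 cells and an E125 over E85 ratio of 1.00 (0.997 to 1.00). That class lay mostly in different clusters at the 2 stages, with 1754 and 712 of its cells in clusters 1 and 4 at E85 and 1858, 1273, 675 and 647 in clusters 0, 2, 5 and 6 at E125. Myeloid-like cells also had 12.0% at both stages, a ratio of 1.00 (0.989 to 1.01), but their medians over cells were 12.7% and 10.5%, and the ratio was 1.52 with the libraries clustered separately, where 15 cells made up the class at E85. The ratio was 1.11 (1.11 to 1.12) in pregranulosa-like cells, which lay mostly in different clusters at the 2 stages. It was 0.983 as a mean over cells, whereas the medians over cells were 11.2% at E85 and 11.9% at E125. Its direction thus depends on the summary used. Under 2000 UMIs there were 16 such cells at E85, with a median share of 12.7%, and 79 at E125, with 2.65%. In endothelial-like cells the share was 10.7% at E85 against 9.92% at E125, a ratio of 0.927 (0.919 to 0.935). The class was cluster 3 alone at E85 (76 cells). At E125 it joined 664 cells of cluster 3 (10.1%) and 26 of cluster 21 (7.55%), led by dividing-cell genes. Cluster 20 at E125 (61 cells, 11.2%) scored best for endothelial markers but was left unnamed. Surface-epithelium-like cells had 10.7% and 10.4%, a ratio of 0.976 (0.970 to 0.982), but the stages do not hold the same clusters. At E85 the class joined 147 cells of cluster 8 (11.8%) and 112 of cluster 11 (9.59%), while at E125 it was 135 cells of cluster 11 alone (10.4%), as the 173 cells of cluster 8 (11.1%) were left unnamed there. Within cluster 11 the summed share was thus higher at E125, but the median over its cells was lower, 9.22% at E85 and 7.15% at E125. Within cluster 8 both were lower at E125, with medians of 11.3% and 9.86%. The medians over cells of the class, 10.3% and 7.15%, lay farther apart than the sums, and the ratio was 0.660 as a mean over cells and 1.14 at a finer clustering. Mitochondrial UMIs, which share the denominator, made up 9.68% and 8.51% of UMIs in that class, 5.10% and 2.93% in pregranulosa-like cells and 3.96% and 3.35% in stromal-like cells, and their part in these differences was not tested beyond leaving them out of the total, which gave ratios from 0.964 to 1.09 in those 3 classes.

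Large germ-cell-like droplets, those with the most UMIs, held many ribosomal protein UMIs and a lower share of them than stromal-like cells. A germ-cell-like droplet was called large with 20000 or more UMIs, and 22 droplets at E85 and 71 at E125 passed that limit. These held a median of 4866 member UMIs per droplet at E85 and 13939 at E125, where a stromal-like cell held a median of 334 and 335. As a share the order was the opposite: the large droplets had 0.719 (0.715 to 0.723) of the stromal-like share at E85 and 0.784 (0.782 to 0.785) at E125. Over the alternatives tried, this quotient ran from 0.699 to 0.743 at E85 and from 0.769 to 0.807 at E125. Other somatic classes lay closer. At E125 the large droplets had 9.69%, beside 9.84% in perivascular-like, 9.90% in glia-like and 9.92% in endothelial-like cells. At E85 they had 8.90%, below 10.4% in perivascular-like and 10.7% in endothelial-like cells. Summed stromal marker levels in the large droplets were 129 and 167 CPM (UMIs per 1000000 UMIs of the class), against 7063 and 8522 CPM in stromal-like cells, with 0 of the 10 markers with a feature undetected.

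Single large droplets varied well beyond counting error. Shares ran from 4.69% to 14.8% with a median of 8.68% at E85, and from 3.99% to 13.7% with a median of 9.56% at E125, so the droplets of the libraries overlapped. The standard deviation over droplets was 2.67 percentage points at E85 and 2.02 at E125, where counting error alone gives 0.134 and 0.0904. The 1 large droplet under 5% at E85 had 12.6% mitochondrial UMIs, and the 4 at E125 had 9.06% to 16.4%. Median mitochondrial shares over all large droplets were 5.43% and 2.13%. Their part in the spread was not tested. The summed share was 8.90% at E85 against 9.69% at E125, a ratio of 1.09 (1.08 to 1.10), which ran from 1.06 to 1.10 over the alternatives. Mitochondrial UMIs moved the other way in these droplets, from 4.95% to 2.51%. With them left out of the total the ratio was 1.06.

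The share did not climb steadily with droplet size. In bins of UMIs per droplet, the median share at E85 was 9.57% under 2000 UMIs, 14.5% from 2000 to 5000, 11.5% from 5000 to 20000, 7.96% from 20000 to 50000, 9.47% from 50000 to 100000 and 8.87% above that. At E125 the same bins gave 6.83%, 8.05%, 9.10%, 7.48%, 8.95% and 9.68%. The bin from 20000 to 50000 UMIs was the lowest at E85 and the second lowest at E125, and it also had the highest median mitochondrial share, 9.65% and 11.2%, over 10 and 6 droplets. Several bins hold fewer than 20 droplets, and only the largest at E125 holds more than 50. In stromal-like cells, none of which reached 20000 UMIs, the median share was also higher in each next bin of the first 3, with 10.4%, 12.6% and 13.4% at E85 and 9.70%, 12.2% and 14.0% at E125. Pregranulosa-like cells at E125 went from 2.65% under 2000 UMIs to 13.8% in the 4 cells of 100000 or more, while at E85 they had 12.7%, 10.7%, 11.2% and, in 4 cells from 20000 to 50000 UMIs, 12.1%. All named somatic cells together also had lower medians from 20000 to 50000 UMIs than in the bin before. These were 10.8% after 11.9% at E85 and 10.7% after 12.5% at E125. That pool mixes classes, and pregranulosa-like cells alone had higher medians there, 12.1% after 11.2% at E85 and 13.4% after 12.7% at E125.

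Small germ-cell-like droplets had the widest middle 50% of the named classes in both libraries, 5.70% to 15.0% at E85 and 4.78% to 11.5% at E125. At E85 the 47 droplets ran from 0.527% to 18.9%, with 11 under 5% and 12 over 15%. Mitochondrial UMIs made up 4.24% to 17.5% of the 11 and 0.208% to 1.73% of the 12. None of the 60 droplets at E125 passed 15% (their highest was 13.8%), and 18 lay under 5%. Those 18 were mixed, with 0.170% to 19.95% mitochondrial UMIs. The part of mitochondrial UMIs in this spread was not tested. The summed share was 10.6% at E85 against 8.43% at E125, a ratio of 0.798 (0.780 to 0.816). That direction did not hold without the filter on cells, where 100 and 110 small droplets had 6.65% and 7.07% and the ratio was 1.06. Summed stromal markers stood at 1238 CPM in the small droplets at E85 and 228 CPM at E125, and germ cell markers at 12716 and 15122 CPM. The part of other cells' RNA in these shares was not tested.

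**Figure D2:**
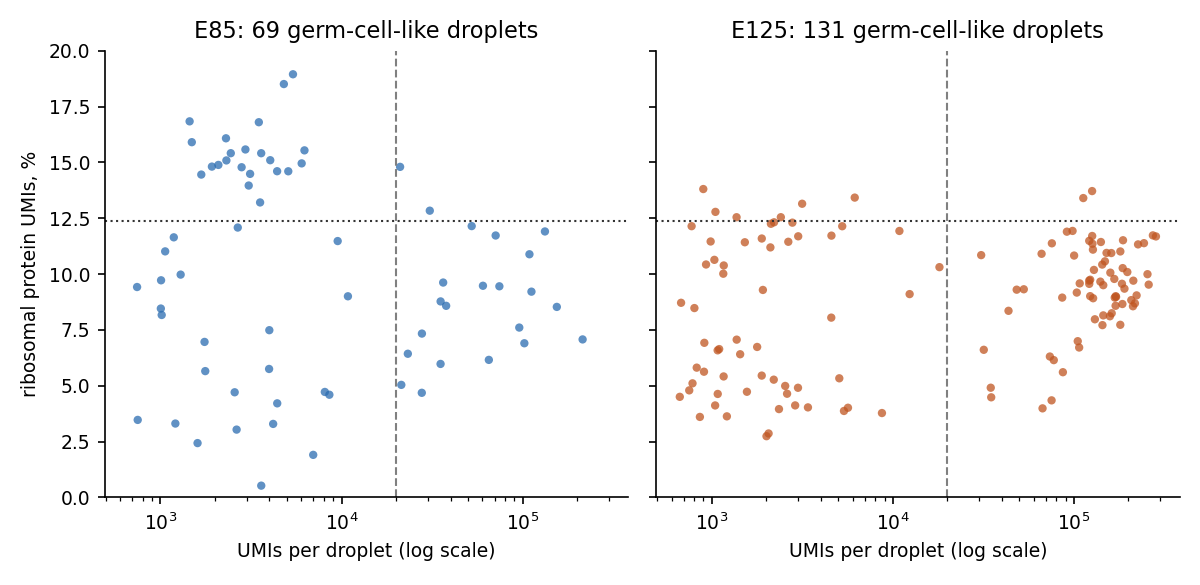
Ribosomal protein share (vertical axis, percent of UMIs) of each germ-cell-like droplet against its UMIs (horizontal axis, log scale), for 69 droplets at E85 and 131 at E125; the dashed line marks 20000 UMIs and the dotted line the summed share of stromal-like cells. Small droplets at E85 fall into a band above the dotted line and a wide spread below it, while large droplets lie mostly under the dotted line in both libraries.

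A gene was measured in a comparison with 50 or more UMIs summed over both sides, and was counted as higher or lower at a 2-fold difference in CPM. In large germ-cell-like droplets, 0 of 24 measured members were 2-fold higher at E125, where 18.9% of all 8918 measured features were, and 0 were 2-fold lower, where 18.3% of features were. The median log2 ratio of the members was 0.18, and that of all features -0.09. Of these members, 16 stood above 1 and 8 below. The highest ratios were those of RPS16, whose tail reaches the peptidyl-tRNA site (1.70, 1.64 to 1.78), of RPL12, at the base of the stalk (1.54, 1.49 to 1.59), and of RPL32 (1.42, 1.38 to 1.45). The lowest were those of RPSA, a small-subunit protein also described as a laminin receptor precursor (0.501, 0.489 to 0.514), RPS26 (0.611) and RPL37 (0.725). RPSA thus missed the 2-fold limit narrowly.

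In small germ-cell-like droplets, 0 of 24 measured members were 2-fold higher, beside 23.9% of 1072 features, and 4 were 2-fold lower, beside 13.4%. The 4 were RPS26, which contacts the messenger RNA upstream of the start codon (3.14-fold lower, 2.57 to 3.86), RPL22, an RNA-binding protein (2.84-fold, 2.34 to 3.46), RPL26, near the exit of the peptide tunnel (2.40-fold, 2.15 to 2.68), and RPL37, a zinc-binding protein (2.37-fold, 2.07 to 2.72). Of the 24, 20 stood below 1. In pregranulosa-like cells, 2 of 25 measured members were 2-fold higher, RPL21 (2.36-fold, 2.26 to 2.47) and RPS16 (2.03-fold, 1.96 to 2.11), beside 17.1% of features. None was 2-fold lower, beside 10.7%.

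The other somatic classes gave short lists of the same kind. In surface-epithelium-like cells 1 of 25 members was 2-fold higher, the paralogue RPL3L, beside 12.4% of features, and 2 were lower, RPSA (2.16-fold) and RPS26 (2.05-fold), beside 10.7%. RPL21 was the 1 member higher and RPSA the 1 member lower, of 24 measured, in each of 3 classes. In stromal-like cells RPL21 was 2.48-fold higher and RPSA 2.10-fold lower, beside 17.8% of features higher and 12.0% lower. Endothelial-like cells had RPL21 2.20-fold higher and RPSA 2.54-fold lower, beside 19.2% and 7.25%. In myeloid-like cells the values were 2.95-fold and 2.11-fold, beside 15.9% and 8.55%. In every set but the small germ-cell-like droplets, each count of members in a direction was a smaller share than that of all features.

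**Figure D3:**
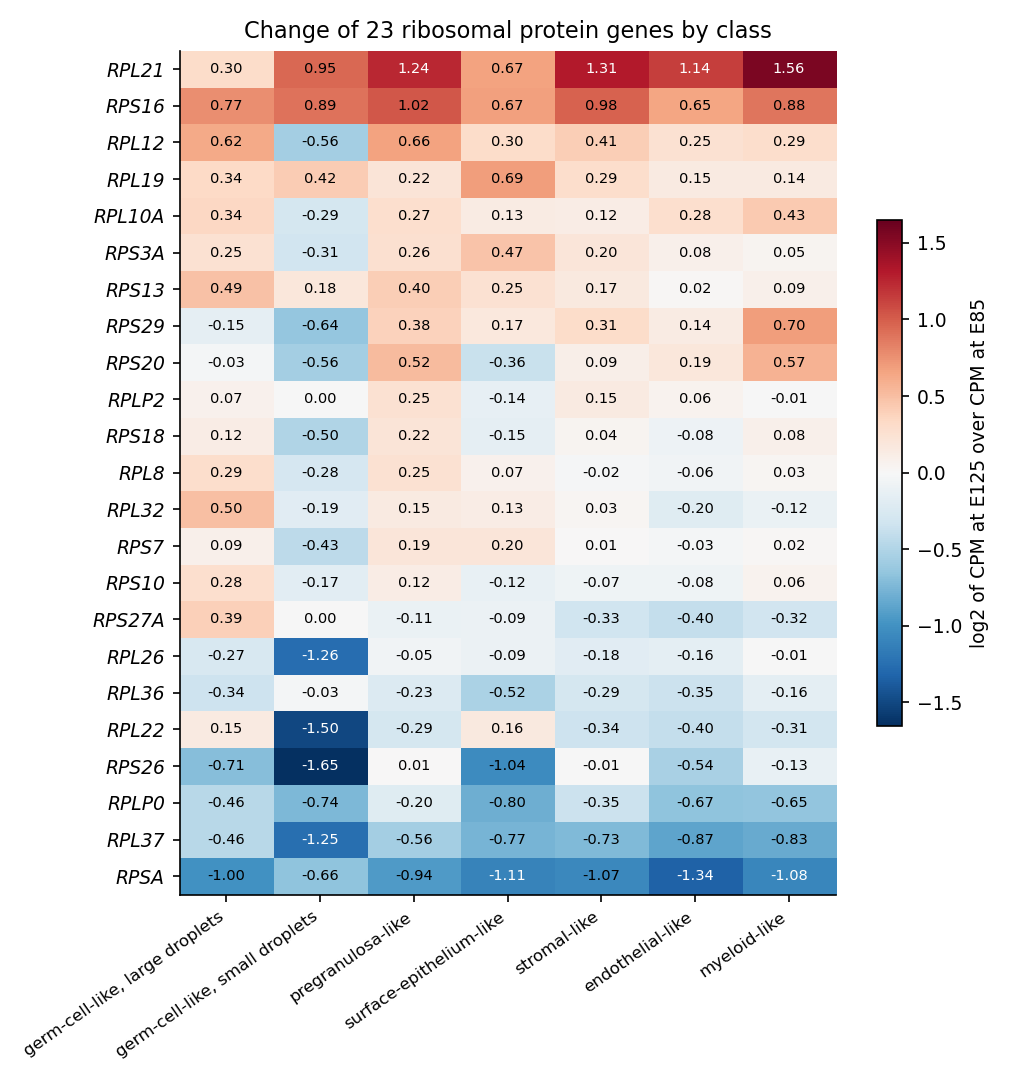
Log2 of CPM at E125 over CPM at E85 for 23 members measured in all 7 sets (rows, ordered by their median) in each set (columns); red is higher and blue lower at E125. RPL21 and RPS16 stand above 0 and RPSA, RPL37 and RPLP0 below 0 in all 7 columns, which compare the same libraries. Most other rows lie near 0 outside the small germ-cell-like droplets.

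RPSA was lower at E125 in all 7 sets. Its level was 5277 CPM in large germ-cell-like droplets at E85 and 2644 CPM at E125, 4289 and 2242 CPM in pregranulosa-like cells, 3970 and 1891 CPM in stromal-like cells and 4260 and 1679 CPM in endothelial-like cells. Surface-epithelium-like cells had 3710 and 1721 CPM, myeloid-like cells 4680 and 2216 CPM, and small germ-cell-like droplets 4355 and 2752 CPM. The E125 levels, up to 2752 CPM, did not overlap the E85 levels, from 3710 CPM. The 7 sets of a stage come from the same library, so they do not replicate the stage. This also holds for the members below, and a difference of library was not told apart from a difference of stage. The fold ran from 1.58 in the small droplets to 2.54 in endothelial-like cells.

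RPL21, a large-subunit protein, was higher at E125 in all 7 sets, by 1.23-fold in large germ-cell-like droplets to 2.95-fold in myeloid-like cells. It stood at 1682 CPM at E85 and 2068 CPM at E125 in the large droplets, and at 1042 and 2587 CPM in stromal-like cells. The large droplets thus had the highest RPL21 level among the 7 sets at E85 and lay below stromal-like cells at E125. RPS16 was higher in all 7 sets by 1.57-fold to 2.03-fold, from 1556 to 2653 CPM in the large droplets and from 1918 to 3787 CPM in stromal-like cells.

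RPLP0, RPL37, RPL36 and RPL26 also kept 1 direction in all 7 sets, with mostly smaller differences. RPLP0, the stalk base to which the acidic stalk proteins bind, was 1.15-fold to 1.74-fold lower, from 6616 to 4819 CPM in the large droplets. RPL37 was 1.38-fold to 2.37-fold lower, from 6829 to 4124 CPM in stromal-like cells. RPL36 and RPL26 also stood below 1 in all 7, by as little as 1.02-fold and 1.00-fold. RPL19 and RPS13 stood above 1 in all 7, but under trimmed-mean (TMM) scaling RPL19 did so in 6 and RPS13 in 4. RPSA, RPL21, RPS16, RPLP0, RPL37, RPL36 and RPL26 kept their direction in all 7 sets under TMM scaling. The members that kept their direction have no share of all features doing so in all 7 sets beside them.

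Members with a high CPM included the following. RPL32 had a mean of 7913 CPM over the 14 class and stage values, RPS18 7057 CPM, RPS7 6661 CPM and RPS13 6500 CPM. RPLP0 had 5822 CPM. Lower than it were RPS3A (5668 CPM), RPL26 (5647 CPM), RPS20 (5643 CPM) and RPS27A, made as a fusion with ubiquitin (5357 CPM). RPS18 ran from 5192 CPM in the large droplets at E85 to 8778 CPM in stromal-like cells at E125, and its E125 over E85 ratio stayed within 0.707 to 1.16. RPS7 ran from 4653 to 8279 CPM. These are levels of captured 3' ends and were not scaled by gene length.

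Compared with stromal-like cells of the same library, most members were lower in large germ-cell-like droplets, and to unequal degrees. At E85, 20 of 24 measured members stood below 1, with a median log2 ratio of -0.61, where the median of all features was 0.05. At E125, 20 of 25 did, with a median of -0.50 and a median of all features of -0.01. At E85, 4 members were 2-fold lower in the large droplets, beside 28.7% of 8590 features, and 0 were 2-fold higher, beside 28.8%. At E125, 4 of 25 were lower, beside 32.2% of 11248 features, and 1 was higher, beside 33.1%. RPL22, RPL37, RPS26 and RPS29 were the 4 at both stages. RPL22 had 4023 CPM in stromal-like cells and 1213 CPM in the large droplets at E85 (3.32-fold lower, 3.17 to 3.48), and 3183 and 1344 CPM at E125 (2.37-fold, 2.32 to 2.42). RPS26 had 3087 and 1540 CPM at E85 (2.00-fold, 1.92 to 2.09), and 3073 and 941 CPM at E125 (3.26-fold, 3.19 to 3.34).

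RPS29, a small zinc-binding protein of the small-subunit head, had 306 CPM in stromal-like cells and 134 CPM in the large droplets at E85 (2.29-fold lower, 1.98 to 2.65), and 379 and 121 CPM at E125 (3.13-fold, 2.94 to 3.34). RPL37 was 2.47-fold lower at E85 (2.40 to 2.55) and 2.06-fold lower at E125 (2.03 to 2.10). A few members went the other way. RPSA was 1.33-fold higher in the large droplets at E85 and 1.40-fold at E125, and RPL36 was 1.18-fold and 1.14-fold higher. RPL21 was 1.61-fold higher at E85 and lower at E125, with a ratio of 0.799. Under TMM scaling at E85, which lowered the median of all features by 0.21 on the log2 scale, 7 members were 2-fold lower.

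Expressed as a percent of all member UMIs of the same class, which removes the difference in total, 9 of 24 members took a larger part in large germ-cell-like droplets than in stromal-like cells at both stages. For 12 the part was smaller at both stages, and 3 (RPL32, RPS16 and RPS27A) changed side. RPSA made up 5.93% of member UMIs in the large droplets and 3.21% in stromal-like cells at E85, and 2.73% and 1.53% at E125. RPS13 made up 7.75% against 5.87% at E85 and 9.99% against 6.59% at E125. RPL36, with 4.12% against 2.50% and 2.98% against 2.05%, and RPLP0, with 7.44% against 4.62% and 4.97% against 3.62%, lay on the same side. On the other side, RPS26 made up 1.73% against 2.50% at E85 and 0.972% against 2.49% at E125. RPL22 made up 1.36% against 3.25%, and 1.39% against 2.57%.

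**Figure D4:**
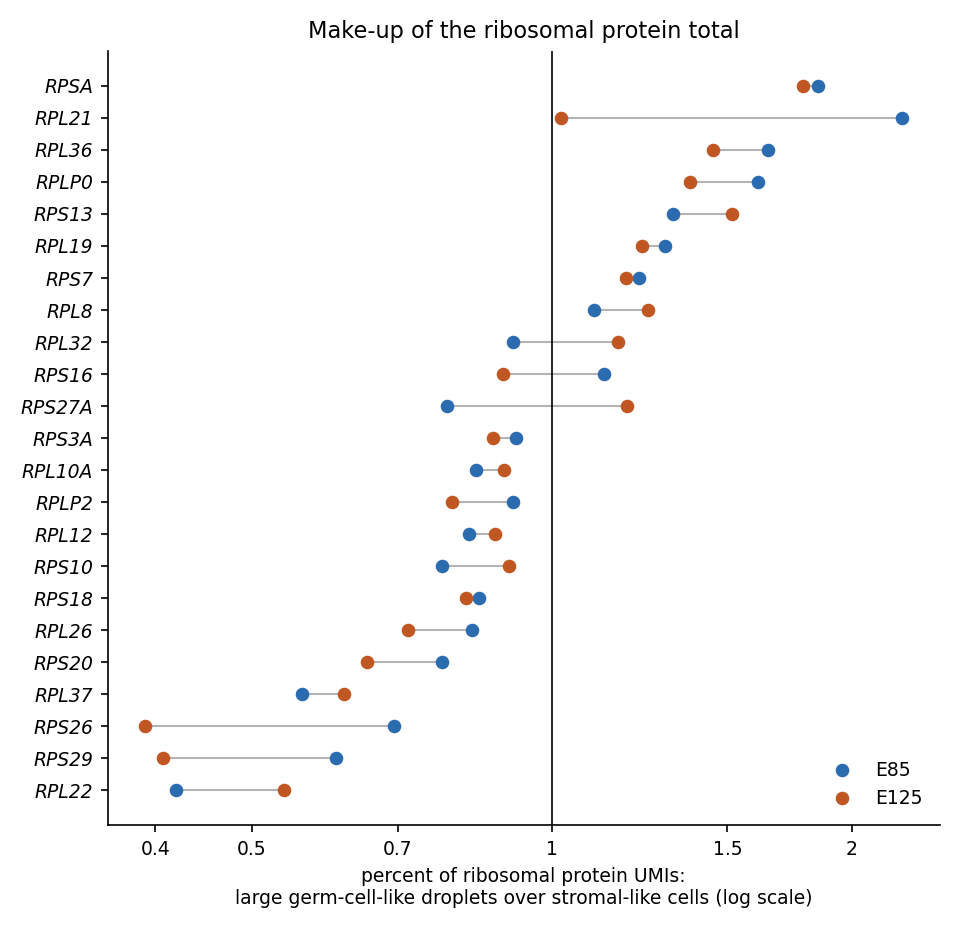
Percent of ribosomal protein UMIs taken by each of 23 members in large germ-cell-like droplets divided by its percent in stromal-like cells (horizontal axis, log scale), at E85 and E125, with the line at 1 marking equal parts. RPSA, RPL36, RPLP0 and RPS13 lie to the right at both stages, and RPL22, RPS29, RPS26 and RPL37 to the left.

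The make-up of the total was also compared over all 7 sets. A member was said to depart where its percent differed 2-fold or more between any of the 7 sets of one library, and at least 50 UMIs in every set were asked for. At E85, 2 of 23 members departed, RPL21 (2.82-fold) and RPL22 (2.39-fold). At E125, 7 of 23 departed: RPL22 (2.77-fold), RPS26 (2.67-fold), RPS20 (2.49-fold), RPL36 (2.16-fold), RPS13 (2.15-fold), RPSA (2.13-fold) and RPL12 (2.07-fold). At either stage, each departing member had a germ-cell-like set, large or small, as its lowest or highest. In the small droplets at E125, RPS26 rested on 131 UMIs and RPL22 on 143. The counts of departing members have no share over all features beside them. In 5 of the 23 at E125, and in 8 at E85, the lowest percent stood in the large germ-cell-like droplets. RPS20, a protein of the small-subunit head, made up 8.97% of member UMIs in myeloid-like cells at E125 and 3.60% in the large droplets. RPL12 made up 5.71% in myeloid-like cells and 2.75% in small germ-cell-like droplets.

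Over all 14 class and stage values, the widest spans belonged to RPL21 (4.51-fold), RPSA (3.88-fold), RPL22 (3.20-fold), RPS16 (2.82-fold), RPL37 (2.70-fold) and RPS26 (2.68-fold), followed by RPS20 (2.49-fold), RPL36 (2.34-fold), RPS13 (2.29-fold) and RPLP0 (2.25-fold). The narrowest was RPS18 (1.22-fold). With the stalk proteins RPLP0 and RPLP2 left out, the 12 small-subunit members together outweighed the 10 large-subunit members in every class. The quotient of their sums was 1.39 and 1.35 in the large droplets, 1.26 and 1.30 in stromal-like cells and 1.35 and 1.38 in pregranulosa-like cells. In surface-epithelium-like cells it was 1.22 and 1.12, from 5.28% and 5.13% of UMIs over 4.34% and 4.57%. The stalk proteins took another 1.07% and 0.739% there, and counted with the large subunit they would turn that order. The sums also hold unlike numbers of genes.

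Member percents were also read droplet by droplet in the large germ-cell-like sets. All droplets of a stage come from 1 library, so they do not replicate the stage. A difference of stage cannot be told apart from a difference of library. RPSA made up a median of 5.76% of a droplet's member UMIs at E85 (range 3.37% to 8.38%) and 2.57% at E125 (1.45% to 4.69%). The middle 50% of droplets, 5.18% to 7.07% and 2.20% to 3.09%, did not overlap, while the ranges did. RPLP0 had medians of 7.53% and 4.73%, with middle 50% of 7.13% to 8.16% and 4.30% to 5.34%. RPS27A was spread widely at E85, with a middle 50% of 2.52% to 5.44%, and narrowly at E125, with 5.36% to 5.92%. RPS26 had medians of 1.82% and 0.934%, and no droplet at E125 exceeded 1.79%. RPS13 had medians of 7.84% and 9.92%, with middle 50% of 6.64% to 8.19% and 8.64% to 10.6%, which did not overlap either, and ranges that did (4.77% to 10.8% and 5.46% to 14.0%). The middle 50% of droplets was also apart for RPS26, RPL37, RPL26, RPL12 and RPL32. These members have no share over all features set apart in the same way beside them.

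**Figure D5:**
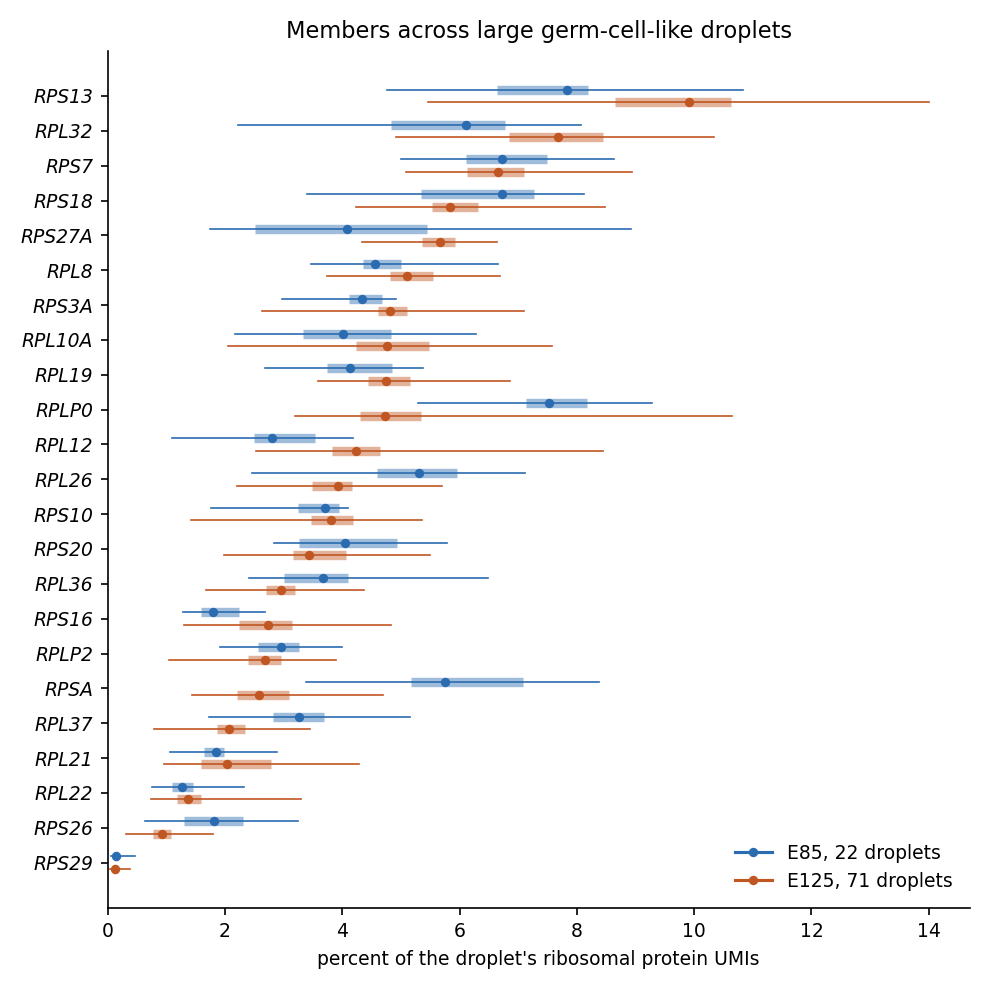
Percent of each droplet's ribosomal protein UMIs (horizontal axis) taken by 23 members across large germ-cell-like droplets, 22 at E85 and 71 at E125; points are medians, thick bars the middle 50% of droplets and thin lines the full range. The middle bars of RPSA, RPLP0, RPS13, RPS26, RPL37, RPL26, RPL12 and RPL32 are apart at the 2 stages, whereas those of RPS7, RPL22 and RPS10 overlap.

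The tissue-restricted paralogues were at the edge of detection. RPL3L, known for its expression in muscle, had 3.25 CPM (5 UMIs) in large germ-cell-like droplets at E85 and 4.42 CPM (44 UMIs) at E125, and it was the member 2-fold higher than in stromal-like cells at E125 (5.36-fold, 2.78 to 11.2, against 12 UMIs). Without the 5 largest droplets of each library no member was 2-fold higher there. Its highest level stood in surface-epithelium-like cells, with 15.5 CPM (35 UMIs) at E85 against 34.9 CPM (54 UMIs) at E125, a ratio of 2.26 (1.45 to 3.56). RPL10L, a retrogene known from the male germ line, had 5 UMIs in the large droplets at E85 and 1 at E125. RPL3 and RPL10, the parents of these genes, have no feature under their symbols. RPL26L1, a close paralogue of RPL26 that falls outside the member rule, was higher in the large droplets. Its level was 208 CPM in stromal-like cells and 778 CPM in the large droplets at E85 (3.75-fold higher, 3.48 to 4.04), and 177 and 830 CPM at E125 (4.69-fold, 4.49 to 4.90). RPL26 itself went the other way, with a ratio of 0.597 at E85 and 0.562 at E125.

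Members differed in how closely they followed the summed level over the 14 class and stage values. As a description over points that share 2 libraries, Pearson's correlation of a member with the sum of the others was highest for RPS18 (0.95) and RPS10 (0.86) and lowest for RPL36 (-0.52), RPS13 (-0.31), RPL21 (-0.19) and RPSA (-0.17). Among 4619 other features with a symbol, those most like the summed members included BLVRB (0.89), H2AZ2 (0.87), LGALS1 (0.86), H2AC6, IFI6, GALNS, EIF3E (0.84), PLTP and PKIA. The least like were ZFYVE1 (-0.91), COG2, CIAPIN1, NARS1 and ADIPOR2. EIF3E, a subunit of an initiation factor complex and itself a TOP gene, ranked 8, while the elongation factor gene EEF2 ranked 2572.

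Other genes of the translation apparatus were read from lists. Elongation factors and other TOP genes had a feature for 7 of 19 symbols, and in large germ-cell-like droplets 0 were 2-fold higher and 0 lower at E125, with a median log2 ratio of 0.06. EEF1D, with 1537 and 2103 CPM, did not pass 2-fold, and EEF1B2 had a ratio of 1.64. Among 10 initiation factors, EIF5 was 3.11-fold higher, from 177 to 549 CPM, and EIF4A2 (4.46-fold), EIF4H (3.63-fold) and EIF1AX (2.05-fold) were lower. The counts of both lists stand beside 18.9% of all features higher and 18.3% lower. EIF1, EIF4A1 and EIF4G2 did not pass 2-fold. EIF1 and EIF1AX, which act in start codon selection, were higher in the large droplets than in stromal-like cells at both stages, by 2.17-fold and 3.75-fold at E85 and by 3.49-fold and 2.15-fold at E125. EIF4A2 and EIF4H were lower there at E125, by 4.89-fold and 3.82-fold. Of the 10, 3 were 2-fold higher and 1 lower at E85, beside 28.8% and 28.7% of all features. At E125, 3 were higher and 3 lower, beside 33.1% and 32.2%.

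Part of the ribosome assembly genes were lower in the large droplets at E125. Of 23 measured genes of ribosome biogenesis and RNA polymerase I, 9 were 2-fold lower and 0 higher, beside the 18.3% and 18.9% of all features given above, with a median log2 ratio of -0.75. The lower genes included NHP2 (3.08-fold), POLR1C (3.0-fold), SBDS (2.61-fold), RRS1 (2.57-fold), TSR1 (2.40-fold), NOP10 (2.36-fold), POLR1A (2.28-fold) and BRIX1 (2.10-fold). FBL, the ribosomal RNA methyltransferase, had 350 and 421 CPM, NOP56 had 240 and 206 CPM, and EBNA1BP2 had 271 and 234 CPM. Of 27 measured genes of this list, 12 were 2-fold higher and 3 lower in the large droplets than in stromal-like cells at E85, beside 28.8% and 28.7% of all features. At E125, 7 were higher and 5 lower, beside 33.1% and 32.2%, so the share higher there was not above that of all features.

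Of 11 measured regulators, 2 were higher at E125 in the large droplets and 3 lower, near the 18.9% and 18.3% of all features. RHEB, the activator of mTOR complex signalling, was 2.18-fold higher and LARP1B 2.06-fold higher. RPS6KB1, a kinase of ribosomal protein S6, was 3.85-fold lower, LARP4 2.70-fold lower and CNBP, a protein that binds TOP sequences, 2.53-fold lower. LARP1 had 99.3 and 66.3 CPM and did not pass the limit. The 57 genes of the mitochondrial ribosome together took 0.778% and 0.763% of UMIs in the large droplets and 0.360% and 0.246% in stromal-like cells. Of 51 and 52 measured, 23 at E85 and 30 at E125 were 2-fold higher in the large droplets, beside the 28.8% and 33.1% of all features, and 1 and 2 were lower. Of the cytosolic members, 0 and 1 were higher. MRPL58, a peptidyl-tRNA hydrolase of that ribosome, had 601 CPM in the large droplets and 124.6 CPM in stromal-like cells at E85, and 809 and 122 CPM at E125, and MRPL17 and MRPL11 were the other genes of highest mean level in the list.

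Between the stages, 14 of 49 mitochondrial ribosomal protein genes were 2-fold lower in the large droplets, with MRPS10 (4.40-fold), MRPS18B (4.15-fold), MRPS6 (4.08-fold), MRPL32 (3.88-fold), MRPL12 (3.32-fold), MRPL28 (3.05-fold) and MRPL51 (2.92-fold) farthest down. Of these, MRPS6 and MRPL28 had no more than 15.6 and 16.2 CPM at E85. MRPS2 was the 1 gene higher, from 4 UMIs at E85. All features gave 18.3% lower and 18.9% higher in the same droplets. The median log2 ratio of the 49 genes was -0.29. Of 11 measured genes of the mitochondrial genome, 8 were 2-fold lower, ND4L by 8.13-fold, ND4 by 3.92-fold, ND3 by 3.05-fold, ND5 by 2.87-fold, ND2 by 2.63-fold, ATP6 by 2.60-fold, ND1 by 2.31-fold and COX1 by 2.22-fold. COX3 and COX2 did not pass 2-fold. Cytosolic ribosomal proteins, with 0 of 24 past 2-fold and a median of 0.18, thus lay on the other side of 0 from these lists in the same droplets. That difference was not tested.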

How the data were processed

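Fetal goat ovary was profiled by droplet single-cell RNA sequencing, 1 library at E85 and 1 at E125. The authors deposited UMI counts per feature and barcode, whole numbers with no normalization. Cell Ranger 3.1 stands in the submitters' processing notes, and version 6.0.0 in the matrices, per the file headers. Genome build and annotation: not given in the sources used here. Tissue and sex labels (ovary, female) were followed, although the protocol mentions testes.

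A minimum of 500 genes and at most 20% mitochondrial UMIs per barcode took out 425 (E85) and 809 (E125). Doublets were taken as the top 0.8% of Scrublet scores for every 1000 barcodes, which removed another 147 and 515, and some will remain. Counts were scaled to 10000 and logged, and both libraries were clustered together in scanpy 1.11.5 (2000 variable genes without the members, 30 components, 15 neighbours, Leiden resolution 1). A cluster of 15 or more cells took the class whose markers had a mean of at least 0.25 of their highest CPM over the library's clusters, with 3 markers at that level, and stayed unnamed where another class had more markers in its top 10 genes by fold. This naming limit was chosen after the clusters were seen.

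UMIs were summed per class and divided by the class total. Shares carry exact binomial (Clopper-Pearson) intervals and ratios exact conditional intervals, at 95%. Ratios are E125 over E85 unless said otherwise. Classes other than germ-cell-like were compared with 50 or more cells in both libraries. The scripts were tested on simulated data. Alternatives covered filters, clustering, weighting, denominators, TMM (edgeR 4.0.16) and DESeq2 1.42.0 size factors, the minimum count and the fold limit. Genes were named by rule: the 10 members of highest mean CPM, those past 2-fold (or the 3 highest and 3 lowest ratios), the 10 widest spans in percent, paralogues with their parents, the 10 most and 5 least like features, and in each related list the 3 highest by mean CPM and up to 8 past 2-fold. The members and lists were chosen with earlier results of these data known. Some named genes are not reported here, in the text or the plots, but count in every sum and number of members.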

Additional observations from a re-analysis of the deposited data

Results flagged for a closer look

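The E125 over E85 ratio of the ribosomal protein share lay on different sides of 1 in different classes, with counting intervals that exclude 1. It was above 1 in large germ-cell-like droplets (1.09) and in pregranulosa-like cells (1.11). It was below 1 in small germ-cell-like droplets (0.798), surface-epithelium-like cells (0.976) and endothelial-like cells (0.927). The surface-epithelium-like class held different clusters at the 2 stages. In the cluster that bore the name at both, the summed share was 9.59% at E85 and 10.4% at E125. The medians over cells of that cluster went the other way, 9.22% and 7.15%. The endothelial-like class also held a further cluster at E125, of 26 cells led by dividing-cell genes (7.55%). With 1 library per stage the differences between these classes were not tested.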

How the results depend on the processing

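Depth limits single small germ-cell-like droplets, with medians of 299 and 120.5 member UMIs, and the naming of clusters sets who enters each class. Of the recalculated values, 109 stayed within the counting interval or within 1.5 times of the main count, 81 moved beyond it and 5 changed direction, and the cause was not tested in any of them. No paired analysis was possible because each stage has 1 library.

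Values are E125 over E85 ratios of the summed share unless named as the quotient, that of large germ-cell-like droplets over stromal-like cells. With 10% mitochondrial UMIs as the limit they were 1.07 in large and 0.669 in small germ-cell-like droplets, 1.09 in pregranulosa-like and 0.955 in surface-epithelium-like cells, and the quotient was 0.737 at E85 and 0.788 at E125. Without a filter on cells the small droplets turned to 1.06, and the ratio was 0.940 in endothelial-like, 0.978 in stromal-like, 0.804 in surface-epithelium-like and 1.14 in pregranulosa-like cells, with a quotient of 0.799 at E125. Surface-epithelium-like cells turned to 1.06 with the members kept in the clustering, where 23 cells bore that name at E125, to 1.01 at resolution 0.5 and to 1.14 at resolution 2. Resolution 0.5 also gave 1.15 in pregranulosa-like and 0.985 in stromal-like cells and a quotient of 0.796 at E125. Resolution 2 gave 1.12, 0.985 and 0.794 for the same values and 0.788 in myeloid-like cells. Separate clustering gave 0.626 in small droplets, 1.17 in pregranulosa-like, 0.984 in surface-epithelium-like and 1.52 in myeloid-like cells.

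As a mean over cells, pregranulosa-like cells turned to 0.983. The large droplets then had 1.06, the small droplets 0.747, surface-epithelium-like cells 0.660, stromal-like cells 0.974 and myeloid-like cells 0.870, with quotients of 0.743 and 0.807. Without mitochondrial UMIs in the total, the large droplets had 1.06, the small droplets 0.775, myeloid-like cells 0.988, endothelial-like cells 0.914, stromal-like cells 0.993, surface-epithelium-like cells 0.964 and pregranulosa-like cells 1.09, with quotients of 0.727 and 0.777. A limit of 10000 UMIs gave 0.729 in small droplets, and a limit of 40000 gave 1.08 in large and 0.831 in small droplets, with quotients of 0.729 and 0.787.

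Some alternatives were chosen after seeing the data. A naming limit of 0.3 gave 1.01 in stromal-like cells and a quotient of 0.779 at E125. Without clusters led by dividing-cell genes the ratio was 1.15 in pregranulosa-like, 0.984 in stromal-like and 0.940 in endothelial-like cells, with a quotient of 0.707 at E85. Without the 5 largest large droplets of each library the ratio was 1.10, the quotients 0.699 and 0.769, and 0 members were 2-fold higher than in stromal-like cells at E125.

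Counts of members also moved. At a 1.5-fold limit, 2 were higher and 2 lower at E125 in large droplets, 2 and 7 in small droplets, 1 was lower in pregranulosa-like cells, and 4 and 4 passed in surface-epithelium-like cells, 3 and 3 in myeloid-like cells, 2 and 3 in endothelial-like cells and 2 and 2 in stromal-like cells. Large droplets over stromal-like cells then gave 1 higher and 14 lower at E85, and 8 lower at E125. With mean CPM over cells, 1 member was lower in large droplets, 1 higher and 1 lower in pregranulosa-like cells, and 4 lower in surface-epithelium-like cells. Without the minimum of 50 UMIs, 1 was lower in large droplets, 2 were lower in endothelial-like cells, and 2 were higher in large droplets than in stromal-like cells at E85. Scaling moved the median of all features by more than 0.1 on the log2 scale in large droplets (0.12 by TMM), small droplets (-0.27), endothelial-like (-0.13) and myeloid-like cells (-0.16), and in large droplets over stromal-like cells at E85 (-0.21). In stromal-like cells 2 members were then higher by TMM and by DESeq2, in endothelial-like cells 0 were higher and 2 lower by DESeq2, and 7 were lower in large droplets than in stromal-like cells at E85 by TMM. Under DESeq2 scaling RPL19 stood above 1 in 6 sets and RPS13 in 4.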

Other observations

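The narrowest distribution of ribosomal protein shares belonged to an unnamed cluster of 223 cells at E85, led by genes that include CCL19, HBAI, HSD17B1 and MIF. Its summed share was 16.4% (16.3 to 16.4), above every named class of that library, and the middle 50% of its cells lay between 15.9% and 16.8%. The standard deviation over its cells was 0.825 percentage points where counting error gives 0.583, a quotient of 1.42, while the other clusters of that library had quotients from 3.60 to 9.0. Mitochondrial UMIs made up 8.51% of its total. Unnamed cells at E85, nearly all from this cluster, had 1504 CPM of germ cell markers and 2293 CPM of stromal markers.

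Some clusters led by genes of dividing cells had lower shares than other clusters of their class. One such cluster had 9.41% in 103 stromal-like cells at E85, against 12.5% and 12.8% in the larger stromal-like clusters of that library. At E125 it had 10.4% in 214 pregranulosa-like cells, against 13.2% in the other large pregranulosa-like cluster, and a dividing endothelial-like cluster of 26 cells had 7.55% against 10.1%. A cluster led by DNA replication genes such as RRM2, DTL and CLSPN, also genes of dividing cells, had 12.0% and 12.2%, against 12.4% in stromal-like cells at both stages. Barcodes left out by the filter had median shares of 2.21% at E85 and 2.59% at E125, against 12.2% and 11.5% in kept cells.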
